A study of Homo sapiens with 30 samples.

Results

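The 26S proteasome is the protease that degrades ubiquitin-tagged proteins. Its genes were examined here in 22Rv1, an established human cell line of castration-resistant prostate cancer, by SLAM-seq. The members are the protein-coding genes of the deposited table whose symbols start with PSMA, PSMB, PSMC, PSMD, PSME, PSMF or PSMG, each read from its RefSeq transcript with the most signal. There were 49 such genes among 22382 in all, chosen by name and not by any measured value. Of these, 48 had a read in some library and 46 had enough reads for a test of level. PSMA8, a testis form of an alpha subunit, had no read, and PSMB11, the thymus form of a catalytic subunit, had 3 reads over all libraries. PSMC1, an ATPase of the 19S base, had 27 reads and was not tested either. The other base ATPase genes, PSMC2 to PSMC6, had 1592 to 18939 reads. Why PSMC1 had so few was not tested, and its count is not read as absence of expression. One member, PSMC3IP, carries the prefix as the name of a PSMC3-binding protein and is not a proteasome subunit.

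SLAM-seq marks RNA made while 4-thiouridine (s4U) is present: the nucleotide is incorporated, chemically alkylated, and then read as a T-to-C conversion. A pretreatment with 800 µM s4U lasted 30 min in all cells, and the 0 h group was taken at its end. For the other groups the medium was exchanged for one with s4U at the same dose and either DMSO, the compound KB742 at 1.2 µM or the compound KI-ARv-03 at 4 µM. Collection followed after 2, 4 or 8 h, so 30 libraries form 10 groups of 3. Both compounds inhibit CDK9, the kinase that lets RNA polymerase II leave its pause near a promoter. Every group carried s4U, so a longer s4U exposure, the medium exchange, DMSO and time cannot be told apart in a DMSO group against 0 h. The cells are 1 line, and the labels do not say that replicates are separate cultures, so p-values measure the spread between these libraries, which may be technical. For 8 of the 9 samples titled 4 h another field names a different time, and the title was followed. The KB742 dose is that of the protocol and the titles, while another field gives a higher dose. The compound of each sample also follows its title, since the descriptions name DMSO for all samples.

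As background, the 20S core is a stack of rings of alpha and beta subunits, and the beta subunits PSMB5, PSMB6 and PSMB7 carry the active sites. Interferon-inducible PSMB8, PSMB9 and PSMB10 can take their places to form the immunoproteasome. The 19S cap recognises ubiquitin with its lid and base, and the base ATPases PSMC1 to PSMC6 unfold the substrate. PSME1 and PSME2 form the PA28 activator, PSME3 and PSME4 are the activators PA28-gamma and PA200, PSMF1 encodes the inhibitor PI31, and PSMG1 to PSMG4 with PSMD5, PSMD9 and PSMD10 are assembly chaperones. The transcription factor NRF1 (NFE2L1) is known to raise many of these genes together when proteasome activity falls, through antioxidant-response-type elements bound with a small MAF partner. Proteasome inhibitors kill cultured prostate cancer cells.

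The promoters of 4 members are shown because their levels moved most among the members whose window held a match to such an element. Sequences are from RefSeq on GRCh38.p14, 250 bases before to 50 after an annotated start, on the gene's strand. Capitals mark TGACNNNGC, a core of the antioxidant-response element, searched on both strands. PSMB9 lies at chr6:32853942-32854241 on the plus strand, PSME2 at chr14:24146561-24146860 on the minus strand, PSME1 at chr14:24135944-24136243 on the plus strand and PSMD5 at chr9:120842873-120843172 on the minus strand.
PSMB9: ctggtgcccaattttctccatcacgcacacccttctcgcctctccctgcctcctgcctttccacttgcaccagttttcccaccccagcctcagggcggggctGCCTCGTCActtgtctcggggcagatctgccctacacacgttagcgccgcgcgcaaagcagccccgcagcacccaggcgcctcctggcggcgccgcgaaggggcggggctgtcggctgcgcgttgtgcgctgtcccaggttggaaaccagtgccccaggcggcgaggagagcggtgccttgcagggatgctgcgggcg
PSME2: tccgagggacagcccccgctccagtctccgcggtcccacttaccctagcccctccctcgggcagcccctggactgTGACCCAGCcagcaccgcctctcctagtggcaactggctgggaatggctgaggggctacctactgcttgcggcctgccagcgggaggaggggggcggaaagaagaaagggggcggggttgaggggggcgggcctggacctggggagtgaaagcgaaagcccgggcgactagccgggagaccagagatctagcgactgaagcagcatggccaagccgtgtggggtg
PSME1: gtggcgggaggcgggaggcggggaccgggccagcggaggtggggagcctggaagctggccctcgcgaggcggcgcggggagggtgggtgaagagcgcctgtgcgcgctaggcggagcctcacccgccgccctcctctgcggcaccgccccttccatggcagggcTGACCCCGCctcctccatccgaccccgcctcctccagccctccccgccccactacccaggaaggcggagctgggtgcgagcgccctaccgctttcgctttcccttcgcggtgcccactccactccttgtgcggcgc
PSMD5: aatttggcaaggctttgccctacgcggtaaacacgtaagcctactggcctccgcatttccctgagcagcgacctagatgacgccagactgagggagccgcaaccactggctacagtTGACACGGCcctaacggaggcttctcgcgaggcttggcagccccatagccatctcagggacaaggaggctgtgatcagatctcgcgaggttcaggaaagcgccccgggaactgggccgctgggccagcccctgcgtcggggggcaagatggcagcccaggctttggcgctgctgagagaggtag
The match starts 148 bases before the start in PSMB9, where it is on the opposite strand, 175 before it in PSME2, 86 in PSME1 and 134 in PSMD5. The first 3 genes rose with DMSO and PSMD5 fell, as given with their values further on. A promoter window was found for 43 of the 49 members, and PSMA7, PSMB1, PSMB6, PSMB7, PSMD4 and PSMG3 had none. The element was in 15 of 43 members (34.9%), against 16.1% of 27305 genes; counted over windows, since a gene can have several starts, it was in 15 of 53 (28.3%) against 13.3% of 35116. Of the members called higher with DMSO at 8 h, 8 of the 17 with a window held it, and so did 2 of the 5 called lower. The motif CCAAT, also searched on both strands and able to share a base with the first, was in 21 of 43 members (48.8%) against 39.7% of all genes, in 9 of the 17 and in 1 of the 5. These are matches of letters in a window and no measure of binding.

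The libraries held 3641264 to 10090430 reads over all transcript rows and 1416051 to 3971408 on the genes kept, with 11684 to 14361 genes detected. Proteasome genes took 13084 to 40775 of those reads. The prostate identity of the cells was checked on markers: KRT8, KRT18, HOXB13, EPCAM, FOXA1, KLK2 and KLK3 had reads in all 30 libraries. Of the 3 basal markers KRT14 was at 0 throughout, KRT5 had reads in 3 libraries and TP63 in 1. Of the 2 endothelial markers VWF was at 0 throughout and PECAM1 had a read in 1 library. Of the 3 immune markers PTPRC was at 0 throughout, CD3E had reads in 1 library and CD68 in 28, at up to 4.30 CPM. The stromal list (VIM, COL1A1 and DCN) summed to 8.99 to 41.0 CPM and the neuroendocrine list (CHGA and SYP) to 17.7 to 245 CPM. Of the 30 libraries, 3 stood apart. KI-ARv-03 4 h replicate 1 had a mean conversion over the members of 1.20%, against 0.351% and 0.402% in the other 2 libraries of its group and 0.741% to 0.907% in the DMSO 4 h libraries. Replicate 3 at 0 h and KB742 2 h replicate 2 had 12180 and 12054 genes detected, few for their depth, and the lowest mean correlations with their groups (0.878 and 0.870). Results that move without these 3 libraries are given with and without them.

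With DMSO over 8 h the levels of PSMB6, PSME1 and PSME2 rose relative to other genes under each scaling tried. Those of PSMD5, PSMD7, PSMC6, PSME4 and PSMD11 fell with the main scaling. The other 2 scalings move all genes down and are no check of a fall. Most other 20S genes tested were higher as well with the main scaling, but not with the other 2. With levels rescaled by TMM, a method that sets the typical gene to no change between libraries, 20 of the 46 members tested were higher at 8 h than at 0 h and 5 were lower, but with library-size scaling 3 were higher and 9 lower, and the CPM as deposited gave the same counts. Without the 3 libraries that stood apart, 20 were higher and 7 lower. Over all 11425 genes tested, 20% were called higher and 29.1% lower at 8 h with TMM, and the members' shares were 43.5% and 10.9%. With library-size scaling 463 of the 11425 genes were called higher and 5219 lower, and with the deposited values 433 and 4903. The median log2 difference of the members was 0.80, against -0.14 over all genes. With library-size scaling those medians were -0.01 and -0.87, and with the deposited values 0.05 and -0.73, so the members' median lay above that of all genes by 0.94, 0.87 and 0.78 under the 3 scalings. Their share of reads on kept genes, which needs no scaling factor, was 0.944%, 0.920% and 0.881% at 0 h and 1.07%, 1.05% and 0.924% with DMSO at 8 h. The highest 0 h library lay above the lowest 8 h library, so these shares overlapped. The sums of 3 marker lists were higher at DMSO 8 h too: stromal 14.1 to 18.0 CPM at 0 h and 33.5 to 41.0 CPM at 8 h, neuroendocrine 17.7 to 30.4 and 55.8 to 118 CPM, immune 0 to 1.83 and 2.71 to 3.72 CPM, none of them overlapping. The luminal sum was lower, at 1781 to 1807 and 1426 to 1606 CPM, the basal and endothelial sums were 0 in both groups, and the part of these markers in the results was not tested. All levels are relative to the other RNA of a library; in bulk cells, fewer cells and less RNA per cell cannot be told apart.

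**Figure D1:**
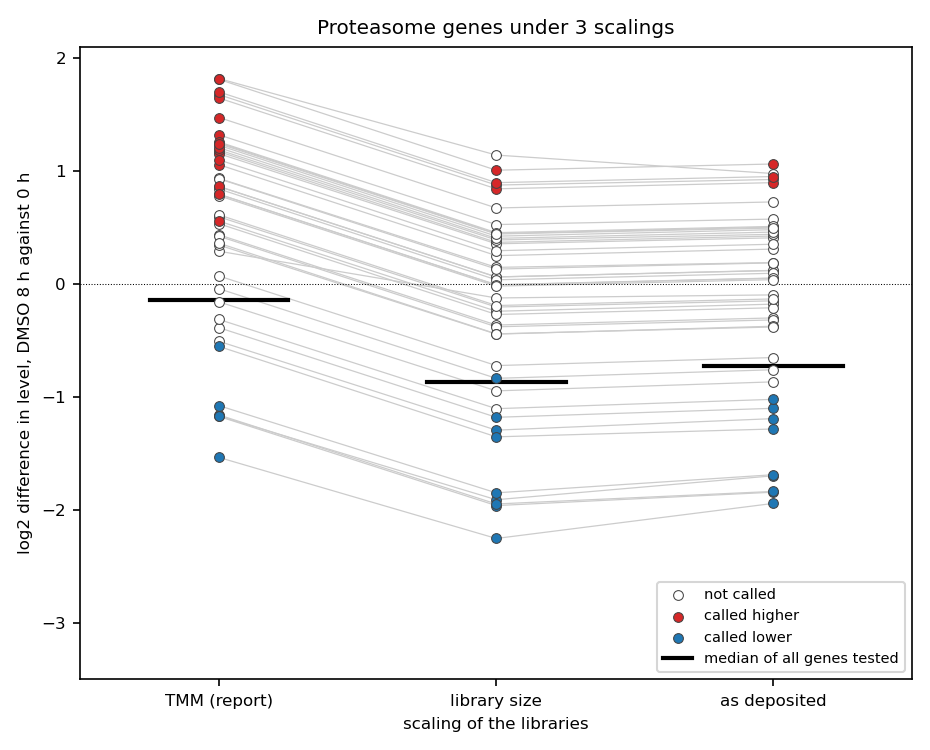
The log2 difference between DMSO at 8 h and 0 h (vertical axis) is plotted for each of the 46 members under 3 scalings; black bars mark the median of all genes tested. The points shift down together when levels are scaled by library size or left as deposited, and in each case most lie above the bar.

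Earlier times gave fewer calls of level. At 2 h no member was called in either direction by limma, edgeR or DESeq2, and 1 had an unadjusted p under 0.05 (PSMB2, log2 difference 0.47); among all genes 0.0875% were called higher and 2.64% lower. At 4 h 5 members were higher and none lower, against 5.72% and 14.6% of all genes: PSME1 (1.13), PSMB6 (0.99), PSME2 (0.86), PSMF1 (0.76) and PSMB2 (0.72 on the log2 scale). The count at 4 h was 3 without 0 h replicate 3, and also 3 without the 3 libraries that stood apart (PSMB6, PSME1 and PSMF1). Scaled by library size or as deposited, none was higher at 4 h and 2 were lower, PSMD5 and PSMD11. Among all 11425 genes, 118 were higher and 2498 lower at 4 h by library size, and 66 and 2730 as deposited. The median over members was 0.24, 0.47 and 0.80 at the 3 times, against -0.01, 0.01 and -0.14 over all genes. These 3 comparisons share the 0 h libraries.

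**Figure D2:**
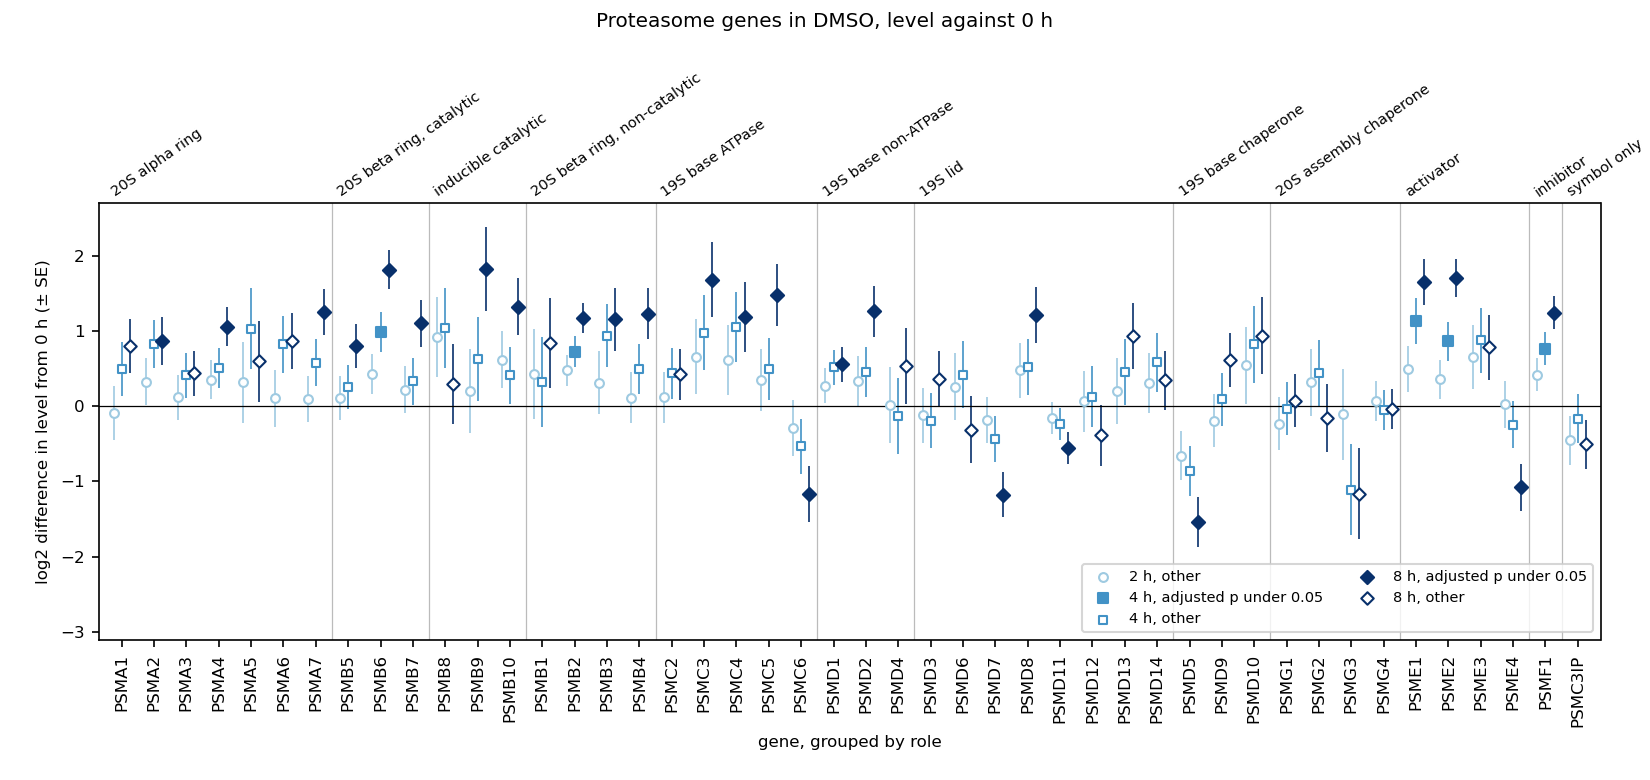
Each member's log2 difference in level from 0 h, with its SE, is plotted at 2, 4 and 8 h of DMSO, grouped by role; filled points had an adjusted p under 0.05. Filled points are absent at 2 h and number 5 at 4 h and 25 at 8 h, with PSMB9, PSMB6 and PSME2 highest and PSMD5 lowest.

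All 3 constitutive catalytic subunits were called higher at 8 h. PSMB6, the caspase-like site, was at 275, 262 and 265 CPM at 0 h and at 747, 1383 and 811 CPM with DMSO at 8 h. Every 8 h library was above every 0 h library, and the 4 h libraries, at 499, 475 and 631 CPM, lay between. The difference was 1.81 ± 0.26 on the log2 scale (SE; limma, adjusted p = 5.27e-06), and it was called at 1.01 with library-size scaling and at 1.06 with the deposited values. PSMB7, the trypsin-like site, was at 368, 363 and 536 CPM at 0 h and 969, 910.4 and 801 CPM at 8 h (log2 difference 1.10 ± 0.31, limma adjusted p = 0.00534). Those groups did not overlap. PSMB5, the chymotrypsin-like site that bortezomib inhibits, was at 250.2, 211 and 263 CPM and then 447, 551 and 295 CPM. Its groups did not overlap, but the difference of 0.80 ± 0.29 (limma, adjusted p = 0.0255) was -0.01 scaled by library size, and the call was lost without any 1 of 0 h replicates 1 and 2 and DMSO 8 h replicates 1 and 2 (adjusted p 0.0509 to 0.136).

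Of the inducible catalytic subunits, PSMB9 and PSMB10 were called and PSMB8 was not. PSMB9 was low, at 2.13, 2.45 and 3.90 CPM at 0 h and 9.92, 16.7 and 11.1 CPM at 8 h, from 7 to 15 reads a library and then 12 to 43. All 8 h values were above all 0 h values (log2 difference 1.82 ± 0.56, limma adjusted p = 0.00876). PSMB10 was at 46.6, 42.2 and 43.4 CPM and then 128, 142 and 76.6 CPM (1.32 ± 0.38, limma adjusted p = 0.00541). These groups did not overlap either, with DMSO 8 h replicate 3 the lowest of its group. PSMB8 had 1 to 13 reads a library at 0 h and 1 to 5 at 8 h, at 0.610, 2.65 and 0.260 CPM and then 0.620, 1.94 and 1.85 CPM; the difference was 0.29 (95% interval -0.80 to 1.38), with values overlapping. Its sign turned negative under both other scalings (-0.12 and -0.10) and without 0 h replicate 3 (-0.05). Scaled otherwise, PSMB9 and PSMB10 were not called higher.

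**Figure D3:**
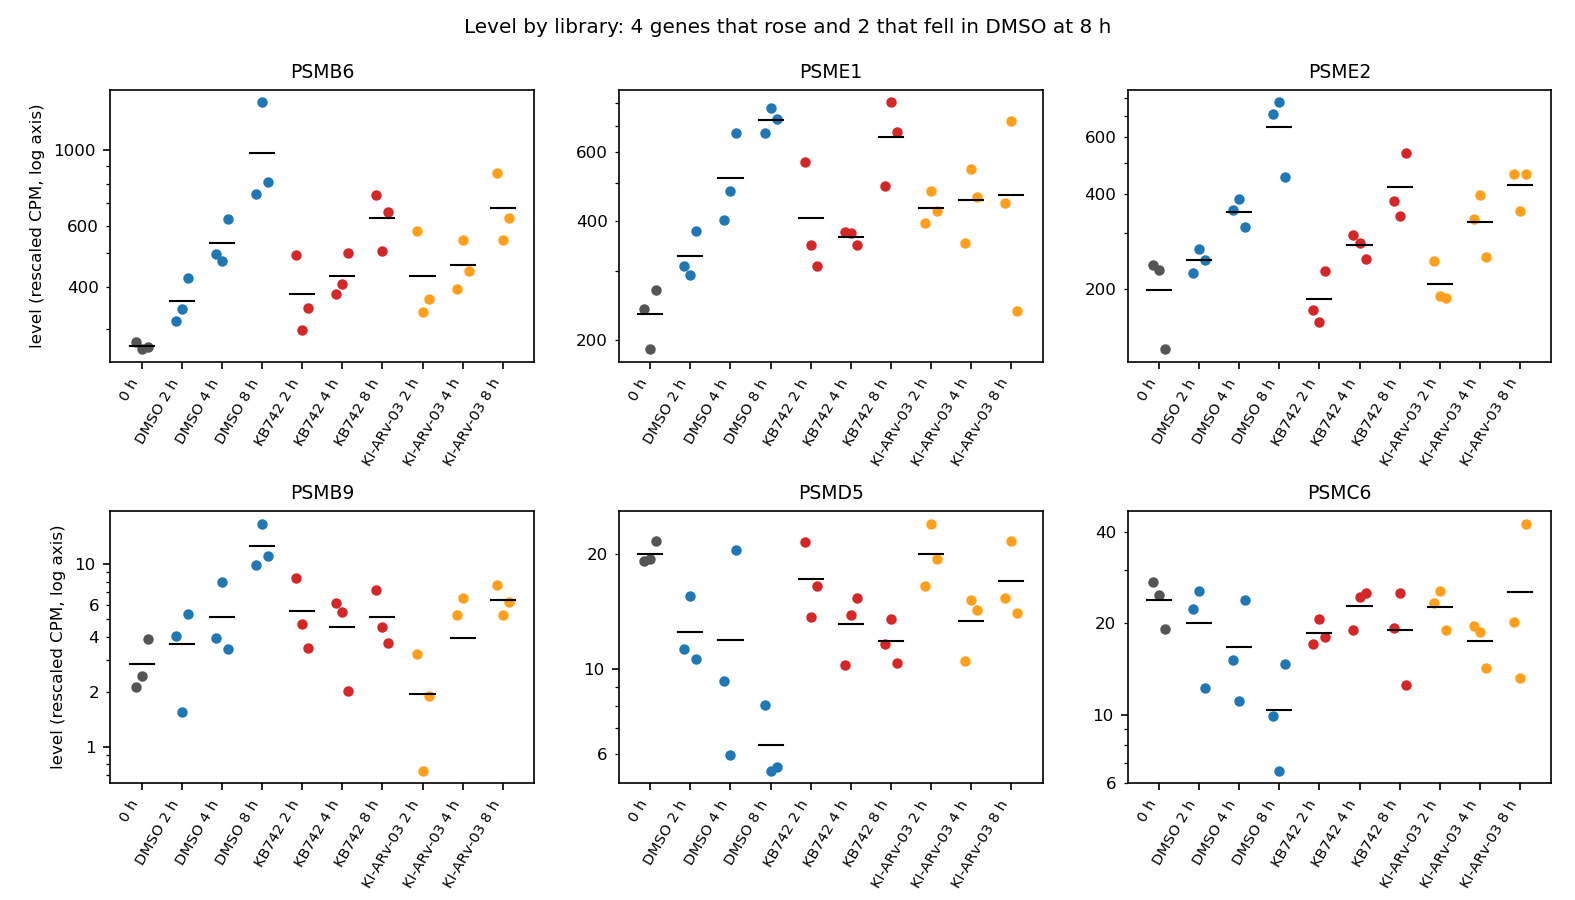
Rescaled CPM (log axis) is plotted for each library of the 10 groups for PSMB6, PSME1, PSME2, PSMB9, PSMD5 and PSMC6; 1 PSMB9 value of 0, at KI-ARv-03 4 h, is not drawn. The first 4 genes are higher with DMSO at 8 h than at 0 h, and PSMD5 and PSMC6 are lower, with no overlap in any of the 6.

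Among the structural subunits of the core, the 4 non-catalytic beta genes had a median log2 difference of 1.16 and the 7 alpha genes one of 0.86. PSMB2, PSMB3 and PSMB4 were called higher and PSMB1 was not, with DMSO 8 h values of 899, 427 and 1289.8 CPM that reached into its 0 h range of 408 to 509 CPM. PSMB4 was at 445, 433 and 350.4 CPM at 0 h and 1277, 1196 and 571 CPM at 8 h, without overlap (1.23 ± 0.34, limma adjusted p = 0.00406). Of the alpha genes, PSMA2, PSMA4 and PSMA7 were called higher. PSMA7 was at 266, 237 and 385 CPM and then 770.4, 902 and 473 CPM, without overlap (1.25 ± 0.31, limma adjusted p = 0.00162). PSMA1 and PSMA6 missed the threshold with groups that did not overlap (0.79 and 0.86, adjusted p = 0.0663 and 0.0584), while PSMA3 and PSMA5 were at 0.44 and 0.60. PSMA2 (0.86) lost its call without 0 h replicate 3, where the difference was 0.38 (adjusted p = 0.316), and without DMSO 8 h replicate 1 or 2. PSMB3 (1.15) lost its call without 0 h replicate 2 or 3 or DMSO 8 h replicate 1 or 2. None of these alpha and non-catalytic beta genes was called higher under the other 2 scalings.

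The 19S base moved in both directions. Of the 5 ATPase genes tested, PSMC3, PSMC4 and PSMC5 were called higher and PSMC6 lower, and PSMC2 was not called (0.42, adjusted p = 0.306). PSMC3 was at 109, 70.3 and 84.3 CPM at 0 h and 279.7, 332 and 233 CPM at 8 h, without overlap (1.68 ± 0.50, limma adjusted p = 0.00722). PSMC6 was at 27.4, 24.9 and 19.3 CPM and then 9.92, 6.58 and 14.8 CPM, from 74 to 122 reads a library and then 16 or 17. Its groups did not overlap (-1.17 ± 0.37, limma adjusted p = 0.0107), and the call was lost without DMSO 8 h replicate 2 (-0.92, adjusted p = 0.0746). PSMC4 (1.19) lost its call without 0 h replicate 1 or 2 or DMSO 8 h replicate 2 or 3. The ubiquitin-binding scaffold subunit PSMD2 was at 181, 157 and 206 CPM and then 417, 428 and 451 CPM, without overlap (1.26 ± 0.33, limma adjusted p = 0.00313). PSMD1, the other large scaffold, was called at 0.56 with overlapping groups, but it was -0.24 with library-size scaling and -0.18 with the deposited values, and leaving out any library except DMSO 8 h replicate 3 ended the call. PSMD4, the ubiquitin receptor, was not called (0.53, adjusted p = 0.397).

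Few lid or assembly genes were called higher. The 8 lid genes had a median of 0.02, with PSMD8 higher, PSMD7 and PSMD11 lower and 5 not called. PSMD8 was at 202, 187 and 258 CPM at 0 h and 532, 429.9 and 529 CPM at 8 h, without overlap (1.21 ± 0.37, limma adjusted p = 0.00878). PSMD7, the partner of the lid deubiquitinase PSMD14, was at 94.5, 84.6 and 102 CPM and then 55.8, 54.6 and 22.2 CPM, without overlap (-1.17 ± 0.30, limma adjusted p = 0.00257). PSMD11 fell by 0.55 on the log2 scale, from 180.4, 178 and 259 CPM to 144, 124 and 146 CPM, and lost its call without 0 h replicate 3 or DMSO 8 h replicate 1 or 2. The 4 chaperones of the core, PSMG1 to PSMG4, had a median of -0.10 and none was called by limma at 8 h; PSMG3 had the largest difference (-1.16, 95% interval -2.40 to 0.07). Of the base chaperones, PSMD9 and PSMD10 were not called (0.61 and 0.94).

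PSMD5, a chaperone of base assembly, had the largest fall of any member. Its levels were 19.2, 19.4 and 21.6 CPM at 0 h. With DMSO they were 11.3, 15.5 and 10.6 CPM after 2 h, 9.31, 5.97 and 20.5 CPM after 4 h and 8.06, 5.42 and 5.54 CPM after 8 h. All values at 2 h and at 8 h were below all values at 0 h, and DMSO 4 h replicate 3 stood within the 0 h range. At 8 h, from 6 to 14 reads a library, the difference was -1.54 ± 0.33 (limma, adjusted p = 0.000439). All 5 members called lower at 8 h, PSMD5, PSMD7, PSMC6, PSME4 and PSMD11, were also called lower under both other scalings. Those scalings shifted the median of all genes by -0.73 and -0.59, which pushes a lower gene further down, so they could not test the falls.

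The activators split by kind. PSME1, the alpha subunit of PA28, had 239.5, 189.6 and 268 CPM at 0 h, then 403, 477 and 669 CPM after 4 h and 669, 775 and 729 CPM after 8 h. PSME2, its beta subunit, had 239, 229.5 and 129.6 CPM at 0 h, then 356, 384 and 313 CPM after 4 h and 709.6, 773 and 451 CPM after 8 h. For both, every 4 h and 8 h library was above every 0 h library. At 8 h PSME1 had a log2 difference of 1.65 ± 0.30 (limma, adjusted p = 8.01e-05) and PSME2 one of 1.70 ± 0.26 (adjusted p = 8.26e-06). With PSMB6 they are the members that were called higher at 8 h under all 3 scalings (PSME1 0.84 and 0.90, PSME2 0.90 and 0.95 under the other 2). PSME4, the PA200 activator, was at 32.9, 46.3 and 46.8 CPM and then 21.7, 24.8 and 12.9 CPM, without overlap (-1.08 ± 0.31, limma adjusted p = 0.00619), and lost its call without DMSO 8 h replicate 3 (-0.81, adjusted p = 0.0548). PSME3 was not called (0.78, adjusted p = 0.133). The inhibitor gene PSMF1 was at 83.5, 89.3 and 84.8 CPM and then 194, 246 and 180.0 CPM, without overlap (1.24 ± 0.22, limma adjusted p = 5.97e-05).

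Across the 20 members called higher, 18 had a positive difference with library-size scaling and 19 with the deposited values. These scalings shifted the all-gene median by -0.73 and -0.59 at 8 h. The intervals were wide: the median half-width of a member's 95% interval was 0.73 on the log2 scale. For a typical member a much smaller difference would therefore not have been called. Members with narrower intervals could be called below it, as PSMD1 (0.56) and PSMD11 (-0.55) were.

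Labelled RNA of proteasome genes built up with DMSO. Conversion is the fraction the authors deposited for each transcript, given here in percent, and a value behind fewer than 20 reads was left out. Averaged over the reads of all members, the 0 h libraries had 0.395% ± 0.0850 (SD, n = 3). With DMSO this mean went from 0.611% ± 0.0955 after 2 h to 0.806% ± 0.0883 after 4 h and 0.931% ± 0.172 after 8 h. No member was called at 2 h by limma (44 tested, 8 at an unadjusted p under 0.05), while 7.32% of all genes were called higher. At 4 h 13 of 43 members were higher, against 34% of all genes, and at 8 h 19 of 42, against 42.6%, so the members' shares of 30.2% and 45.2% were near the background. None was lower at any time, against 0.024%, 0.0511% and 0.0309% of all genes at 2, 4 and 8 h. The count at 4 h was 5 without 0 h replicate 3, 7 without DMSO 4 h replicate 1 and 8 without DMSO 4 h replicate 3, and the count at 8 h was 11 without 0 h replicate 3. Without the 3 libraries that stood apart the counts were 11 and 20. Over the 41 members with a value in every library the median conversion was 0.165% at 0 h and 0.552% with DMSO at 8 h, against 0.196% and 0.742% over 4697 genes.

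**Figure D4:**
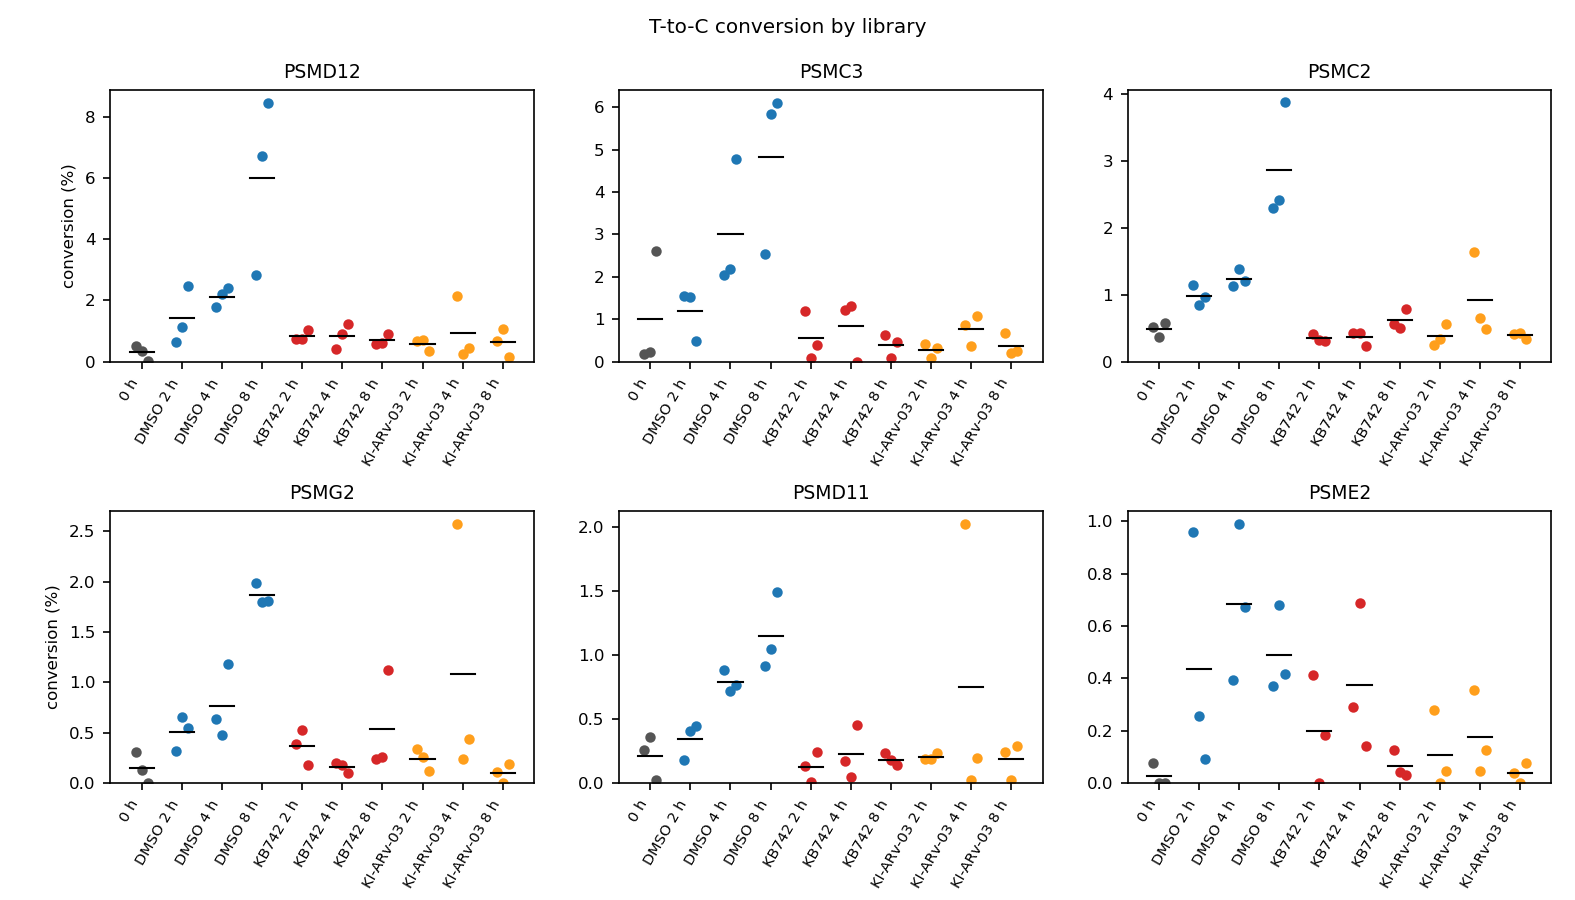
Conversion in percent is plotted for each library of the 10 groups for PSMD12, PSMC3, PSMC2, PSMG2, PSMD11 and PSME2. The group mean is highest with DMSO at 8 h in PSMD12, PSMC3, PSMC2 and PSMG2 and lower with either compound at 8 h in all 6; KI-ARv-03 4 h replicate 1 is above its group in most of them.

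The lid subunit PSMD12 had the highest conversion of any member with DMSO at 8 h. Its 0 h libraries had 0.519%, 0.361% and 0.0340%, its 4 h libraries 1.78%, 2.20% and 2.40% and its 8 h libraries 2.83%, 6.70% and 8.45%. The groups did not overlap, and the 8 h libraries ranged widely, from 61 to 161 reads each (limma, adjusted p = 2.71e-06). The base ATPase PSMC3 was at 0.175%, 0.233% and 2.62% at 0 h and 2.54%, 5.83% and 6.10% at 8 h. It was called (limma, adjusted p = 0.00153), but 0 h replicate 3 lay above DMSO 8 h replicate 1. PSMC2, another base ATPase, was at 0.524%, 0.374% and 0.581% and then 2.30%, 2.42% and 3.88%, without overlap (limma, adjusted p = 6.03e-07). The levels of PSMD12 and PSMC2 were not called at 8 h (-0.39 and 0.42). Across 42 members the Spearman correlation of the level change with conversion at 8 h was -0.12, against -0.51 across 6541 genes, from the same libraries.

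Within each role the conversion at 8 h spread widely. PSMG2, a core chaperone, was at 0.304%, 0.134% and 0 at 0 h and 1.99%, 1.79% and 1.81% at 8 h, without overlap (limma, adjusted p = 0.000361). The inducible subunit PSMB10 was at 0.0920%, 0.143% and 0 and then 1.55%, 0.934% and 1.53%, without overlap (limma, adjusted p = 0.0103, and 0.0524 without 0 h replicate 3). All 3 constitutive catalytic genes were called higher, at 0.487% ± 0.163 for PSMB5, 0.664% ± 0.248 for PSMB6 and 0.578% ± 0.0747 for PSMB7. The PSMB5 call was lost without 0 h replicate 1 or 3 or DMSO 8 h replicate 2 (adjusted p 0.0563 to 0.0831), and the PSMB6 call without 0 h replicate 1 or 2 or DMSO 8 h replicate 3 (0.0657 to 0.117). The activator with the highest mean was PSME3, at 0.222%, 0.196% and 0.150% and then 1.08%, 0.970% and 0.391% (limma, adjusted p = 0.0344). Its groups did not overlap, but the call was lost without any 1 library except DMSO 8 h replicate 3 (adjusted p 0.0551 to 0.111). PSMB2, a non-catalytic beta gene, reached 0.644% ± 0.215 and the inhibitor gene PSMF1 0.830% ± 0.156, both called, PSMF1 not without 0 h replicate 3 or DMSO 8 h replicate 2 (adjusted p = 0.167 and 0.0659). PSMD10 reached 1.99% and PSMD1 0.813% ± 0.774, neither called. By role, the calls at 8 h were 4 of 7 alpha, 3 of 3 catalytic, 1 of 4 non-catalytic beta, 2 of 4 base ATPase, 0 of 3 base non-ATPase, 4 of 8 lid, 1 of 4 core chaperone and 2 of 4 activator genes. Over all genes 42.6% were called higher. With so few genes in a role, no difference between roles is read from these counts. PSMB8, PSMB9, PSMC6 and PSMD5 had too few reads for a conversion test at 8 h.

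PSMA4 shows how the choice of transcript enters a value. Its row with the most reads, NM_001330673, had a conversion of 2.06% ± 0.569 already at 0 h and 3.19% ± 0.774 with DMSO at 8 h. A different row of the gene, NM_002789, was at 0.140% ± 0.0681 and 0.367% ± 0.0626. The levels of both rows were higher at 8 h, at 724 and then 1495 CPM for the first and 220 and then 505 CPM for the second. Part of the conversion of the first row was present at the end of the pretreatment; its source was not tested.

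**Figure D5:**
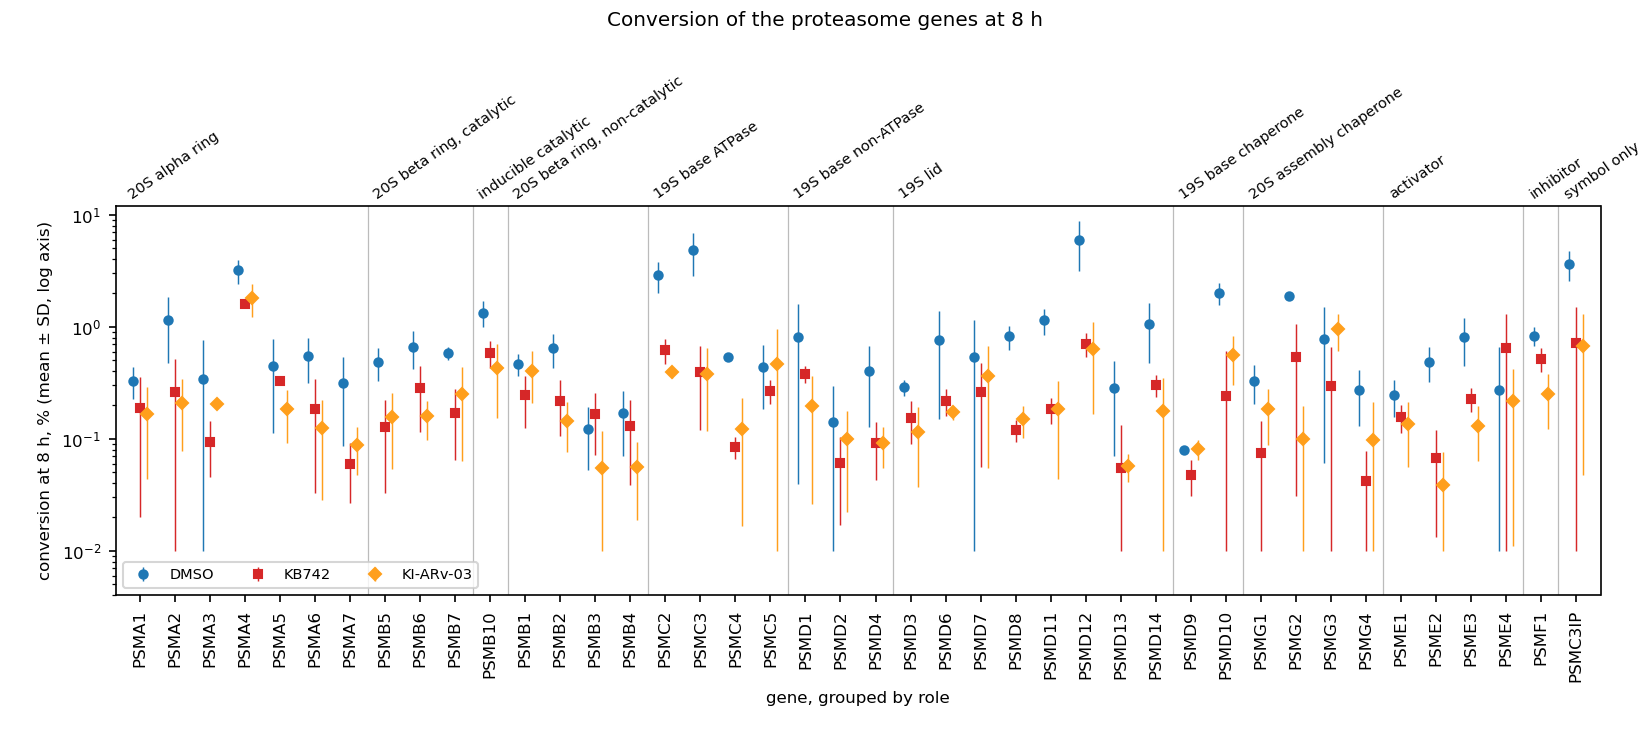
Mean conversion in percent (log axis) at 8 h is plotted with its SD over 3 libraries for each member with DMSO, KB742 and KI-ARv-03. Most members lie lower with either compound than with DMSO, from PSMD12 at 5.99% with DMSO against 0.703% and 0.638%.

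With either CDK9 inhibitor, conversion of many proteasome genes was lower than with DMSO at 8 h, including PSMD12, PSMC2, PSMC3 and PSMD8. Averaged over member reads, KB742 libraries at 8 h had 0.333% ± 0.0662 and KI-ARv-03 libraries 0.368% ± 0.103. The DMSO mean was 0.931% ± 0.172 and the 0 h mean 0.395% ± 0.0850. These means weigh genes by reads, and PSMA4, the member with the most reads, was at 2.06% already at 0 h. Medians over the 41 members with a value in every library were 0.218% with KB742 and 0.172% with KI-ARv-03. They were 0.552% with DMSO and 0.165% at 0 h, so by median neither compound lay below 0 h. At 8 h KB742 lowered 15 of the 42 members tested, against 33.8% of all genes, and KI-ARv-03 lowered 16, against 36.4%. These are shares of 35.7% and 38.1%, near the background, and neither compound raised any member, against 0% and 0.0317% of all genes. Both counts include PSMC3IP, which is not a proteasome subunit. The compounds were given at different doses and were each compared with the same DMSO libraries, so their values are set side by side without a test between them. The KB742 count was 8 without DMSO 8 h replicate 3. The KI-ARv-03 count was 10 without DMSO 8 h replicate 2, 8 without DMSO 8 h replicate 3 and 8 without KI-ARv-03 8 h replicate 2. Without the 3 libraries that stood apart the counts were 19 and 24. The shares of all genes in those fits are not given here, so these counts are not set against a background.

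The members with the highest DMSO conversion were among those lowered. PSMD12 was at 0.584%, 0.628% and 0.896% with KB742 at 8 h and 0.691%, 1.08% and 0.141% with KI-ARv-03. Each was below every DMSO library, which spanned 2.83% to 8.45% (limma, adjusted p = 7.91e-05 and 3.62e-05). PSMC2 was at 0.569%, 0.499% and 0.793% with KB742 and 0.409%, 0.424% and 0.346% with KI-ARv-03. DMSO libraries were at 2.30% to 3.88%, without overlap (limma, adjusted p = 6.93e-06 and 5.61e-07). PSMC3 was at 0.392% ± 0.274 and 0.380% ± 0.262, also without overlap with DMSO. PSMG2 was at 0.234%, 0.257% and 1.12% with KB742 and 0.107%, 0 and 0.192% with KI-ARv-03, below every DMSO library (limma, adjusted p = 0.0180 and 0.000357), and KB742 8 h replicate 3 was the highest of the 6. The KB742 call of PSMG2 was lost without KB742 8 h replicate 1 or 2. Of the catalytic genes, PSMB7 was called lower with KB742 (0.170% ± 0.105) and PSMB6 with KI-ARv-03 (0.158% ± 0.0604). Without a call, KI-ARv-03 had PSMB7 at 0.251% ± 0.187 and KB742 had PSMB6 at 0.282% ± 0.167. PSMB7 lost its call without any 1 library except KB742 8 h replicate 3, and PSMB6 lost its call without DMSO 8 h replicate 3. PSMB5, at 0.127% ± 0.0939 and 0.155% ± 0.102, was called with neither.

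Fewer members were called by conversion at earlier times. At 2 h neither compound changed a member by limma: 5 of 44 had an unadjusted p under 0.05 with KB742 and 4 with KI-ARv-03, and 0.284% and 0.355% of all genes were called lower and 0% higher. Without the 3 libraries that stood apart, PSMC2 was called lower with KI-ARv-03 at 2 h. At 4 h KB742 lowered PSMC2, PSMA4, PSMD8 and PSMC3, 4 of 43, and raised none, against 15.5% of all genes lower and 0.0131% higher. PSMC2 was at 0.429%, 0.432% and 0.229% with KB742, below the DMSO 4 h values of 1.14%, 1.38% and 1.20% (limma, adjusted p = 0.00731). KI-ARv-03 at 4 h lowered none of 43 by limma (5 at an unadjusted p under 0.05), and raised none, against 6.03% and 0.0524% of all genes. In its group, replicate 1 was apart: PSMD12 was at 2.14%, 0.254% and 0.458% and PSMG2 at 2.57%, 0.234% and 0.438%. Without replicate 1 of that group KI-ARv-03 lowered 7 members at 4 h, and without the 3 libraries that stood apart both compounds lowered 13. For these fits too the shares of all genes are not given here. Compared between 8 h and 2 h, the difference from DMSO in conversion changed in 1 member of 42 for each compound. These were PSMD12 for KB742 and PSMC2 for KI-ARv-03, both more negative at 8 h, where the DMSO reference held more label. Over all genes 3.71% were more negative and 0.0162% more positive for KB742, and 3.78% and 0.0161% for KI-ARv-03. The KB742 count at 4 h was 2 without DMSO 4 h replicate 1, DMSO 4 h replicate 3 or KB742 4 h replicate 1.

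Few differences in level between a compound and DMSO at the same time passed the test. At 8 h the stromal sum was 33.5 to 41.0 CPM with DMSO, 25.6 to 27.4 CPM with KB742 and 27.0 to 32.2 CPM with KI-ARv-03, and the immune sum was 2.71 to 3.72, 0.502 to 0.803 and 0.826 to 3.17 CPM. The luminal sum was 1426 to 1606, 1332 to 1574 and 1337 to 1401 CPM in the same order; their part in the results was not tested. KB742 gave no call at 2, 4 or 8 h by limma, edgeR or DESeq2, with 0, 0 and 7 members at an unadjusted p under 0.05. Among all genes, 1.23% were called higher and 0.595% lower with KB742 at 8 h, against 0% and 0.0263% at 2 h and 0.035% and 0.0788% at 4 h. KI-ARv-03 gave no call at 2 or 4 h by any of the 3 tools, with 1 and 0 members at an unadjusted p under 0.05 (all genes 0% higher and 0.0263% lower at 2 h, 0.0175% and 0.0525% at 4 h). At 8 h it gave 1 call, against 1.95% of all genes higher and 0.989% lower. At 8 h the members' median difference was -0.20 for KB742 and -0.17 for KI-ARv-03, where all genes had medians of -0.03 and 0.00. With library-size scaling the members' medians turned to 0.06 and 0.05, and with the deposited values to 0.16 and 0.17, below the medians of all genes in each case (0.20 and 0.19, then 0.25 and 0.25).

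The call was PSMD5, the base chaperone that fell most with DMSO. At 8 h it was at 15.4, 21.7 and 14.0 CPM with KI-ARv-03, against 8.06, 5.42 and 5.54 CPM with DMSO and 19.2 to 21.6 CPM at 0 h. The KI-ARv-03 and DMSO groups did not overlap, and the difference was 1.29 ± 0.33 (limma, adjusted p = 0.0292). It was called under the other 2 scalings, but these shifted the median of all genes up, by 0.18 and 0.24, and could not test a rise. Both edgeR and DESeq2 called it, but a limma fit of only the 2 groups did not (1.28, adjusted p = 0.178). Leaving out DMSO 8 h replicate 2 or 3 or any KI-ARv-03 8 h library also ended the call, with differences of 1.12 to 1.41. With KB742 PSMD5 was at 11.6, 13.6 and 10.4 CPM, above every DMSO library, but the difference of 0.82 (95% interval 0.15 to 1.49) was not called (adjusted p = 0.239).

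The change over DMSO and each compound's difference share the DMSO 8 h libraries, so nothing is read from the sign of one against the other. PSMC6 was at 20.2, 13.2 and 42.5 CPM with KI-ARv-03 and 19.3, 25.1 and 12.6 CPM with KB742 at 8 h, against 9.92, 6.58 and 14.8 CPM with DMSO, with overlap in both (1.11 and 0.82, limma adjusted p = 0.0991 and 0.313). DESeq2 called PSMC6 higher with KI-ARv-03 (1.38). PSME4 was at 43.3, 23.8 and 52.0 CPM with KI-ARv-03 and 43.4, 32.1 and 25.2 CPM with KB742 (0.95 and 0.75, limma adjusted p = 0.0991 and 0.270). PSME1 was at 445, 717 and 238 CPM with KI-ARv-03 and 491, 802 and 676 CPM with KB742, against 669, 775 and 729 CPM with DMSO. The KI-ARv-03 difference was -0.77 (95% interval -1.39 to -0.16, limma adjusted p = 0.163) and the KB742 difference -0.17 (-0.78 to 0.45). PSMB6 was at 739, 507 and 661 CPM with KB742, below every DMSO library (-0.58, adjusted p = 0.313), and at 858, 548 and 633 CPM with KI-ARv-03 (-0.50, adjusted p = 0.334). PSMB9 was at 7.23, 4.52 and 3.71 CPM with KB742 and 7.69, 5.29 and 6.19 CPM with KI-ARv-03, below every DMSO value in both, with differences of -1.15 and -0.86 that did not pass (limma, adjusted p = 0.358 and 0.441).

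Genes that feed or regulate the proteasome under other names were read from a list of 39, of which 35 were tested. With DMSO at 8 h, 12 were higher and 7 lower, but with library-size scaling 1 was higher and 18 lower, and with the deposited values 1 and 15. Over all genes tested, 20% were called higher and 29.1% lower with TMM scaling. With library-size scaling 463 of the 11425 genes were higher and 5219 lower, and with the deposited values 433 and 4903. RPS27A, which encodes ubiquitin fused to a ribosomal protein, and the polyubiquitin gene UBB were higher (1.93 and 0.94). The 19S subunit SEM1 (1.34), the core assembly factor POMP (1.30), the ubiquitin-activating enzyme UBA1 (1.41), the chaperone BAG6 (1.63), the shuttle UBQLN4 (1.11), VCP (0.81), its cofactor UFD1 (1.33) and SQSTM1 (0.86) were higher, and none of the genes named here as higher was called with the other 2 scalings. UBQLN4, with 5 to 12 reads a library, lost its call without any 1 library except 0 h replicate 3 (adjusted p 0.0739 to 0.121), BAG6 without any 0 h library or DMSO 8 h replicate 3 (0.0529 to 0.123), and UBA1 without 0 h replicate 2 or DMSO 8 h replicate 3 (0.0599 and 0.128). AKIRIN2, an adaptor for nuclear import of proteasomes, was lower (-2.36), as were ZFAND5 (-1.20) and the ubiquitin ligase SYVN1 (-1.41). ZFAND5 lost its call without 0 h replicate 1 or 2 or DMSO 8 h replicate 1 (adjusted p 0.0646 to 0.0806).

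Of the transcription factor genes of this pathway, the small MAF genes MAFK (-3.52) and MAFF (-1.87) and NFE2L2 (-2.40) were called lower with DMSO at 8 h. NFE2L2 was at 15.5, 14.9 and 0 CPM at 0 h and 0, 0.775 and 0 CPM at 8 h, so its groups overlapped, and the call was lost without 0 h replicate 1 or 2 or DMSO 8 h replicate 1 or 3 (adjusted p 0.0562 to 0.123). MAFF lost its call without DMSO 8 h replicate 1 (adjusted p = 0.0680). NFE2L1 itself was at 44.2, 47.1 and 57.0 CPM at 0 h and 32.9, 34.5 and 33.2 CPM at 8 h, without overlap but short of the threshold (-0.54, limma adjusted p = 0.0827). Its conversion was 0.608% at 0 h and 11.7% with DMSO at 8 h, 4.74% with KB742 and 1.77% with KI-ARv-03, called in all 3 comparisons. MAFG was the gene of the list whose level a compound changed: at 8 h it was at 62.2, 15.6 and 34.1 CPM with KB742, against 86.2, 94.1 and 107 CPM with DMSO. Those groups did not overlap (-1.54 ± 0.35, limma adjusted p = 0.0177). The call was lost without DMSO 8 h replicate 2 or 3 or KB742 8 h replicate 2, and it was not made under the other scalings. With KI-ARv-03 MAFG was at 45.7, 25.4 and 60.3 CPM (-1.19, limma adjusted p = 0.0610). Conversion of the list was higher in 17 of 27 genes with DMSO at 8 h, against 42.6% of all genes. It was lower in 15 of 27 with each compound, against 33.8% for KB742 and 36.4% for KI-ARv-03.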

How the data were processed

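SLAM-seq libraries of 22Rv1 cells were analysed from 1 table of RefSeq transcripts (hg19, per the submitters' processing notes). One unit is a signal that the authors deposited under the name CPM, meaning reads brought to a library total. The other is a fraction, deposited by the authors as each transcript's conversion. Its exact denominator, the aligner and the caller were not given in the sources used here. Whole reads were recovered, since 100% of CPM values above 0 lay within 0.05 of a multiple of the value of 1 read. Transcripts without a name held 0.478% of reads and were left out. Recovered reads were rescaled with edgeR 4.0.16 TMM factors, filtered with filterByExpr (minimum count 10, 11425 genes) and tested as log2(CPM + 1) with limma 3.58.1 (trended variance, R 4.3.3) in 1 fit of 30 libraries and 10 groups. The plan named limma, with a count test as the main test only if the unit was raw counts. The unit is a signal, so limma was kept. The alternatives are edgeR's quasi-likelihood test and DESeq2 1.42.0 on recovered reads. For conversion, limma was run on arcsine square-root values, with those behind fewer than 20 reads missing and at least 2 values a group. Differences are log2 ± SE and p-values are Benjamini-Hochberg adjusted over all genes tested, called under 0.05. Each compound was compared with DMSO at each time, and DMSO with 0 h. Named members are those with the largest called differences, the largest in each role, all catalytic and inducible subunits, and the member of each role with the highest conversion; PSME1 and other members were named after their values were seen. The members and lists were chosen with earlier results of these data known. Some genes of the lists are not reported here by name. The scripts were tested on simulated data. Tables and figures used Python 3.11.15 (matplotlib 3.10.9, numpy 2.4.6, pandas 2.3.3).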

Additional observations from a re-analysis of the deposited data

Results flagged for a closer look

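The difference in conversion between a compound and DMSO, called its effect here, was not the same at 2 h and 8 h in 2 members. In both, the DMSO mean rose between those times and the compound mean moved far less. The comparison therefore cannot tell a changed action of the compound from label gained with DMSO. For PSMD12 the KB742 effect at 8 h minus that at 2 h was -4.73 percentage points (limma interaction, adjusted p = 0.0421). The means behind it were 0.855% with KB742 and 1.42% with DMSO at 2 h, and 0.703% and 5.99% at 8 h. The call was lost when any 1 of DMSO 2 h replicates 1 and 2, DMSO 8 h replicates 2 and 3 or the 6 KB742 libraries was left out. For PSMC2 the KI-ARv-03 effect at 8 h minus that at 2 h was -1.87 percentage points (limma interaction, adjusted p = 0.0275), from 0.385% against 0.989% at 2 h and 0.393% against 2.87% at 8 h. That call was lost without DMSO 2 h replicate 2, DMSO 8 h replicate 3, KI-ARv-03 2 h replicate 3, or KI-ARv-03 8 h replicate 2 or 3.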

How the results depend on the processing

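Counts of proteasome genes called by level depended on the scaling. With DMSO at 8 h they were 25 in all, 12 with library-size scaling, 12 with deposited values, and 18 to 25 without 1 library. At 4 h they were 5, 2 and 2, with 3 when the 3 libraries that stood apart were left out (an alternative chosen after seeing the data) and 3 to 6 without 1 library. For KI-ARv-03 at 8 h the count of 1 became 2 scaled by library size, 2 by DESeq2, 0 in a fit of only the groups compared and 0 to 4 without 1 library. Signs turned for PSMB5 (-0.0077) with library-size scaling, for PSMD1 (-0.24 with that scaling, -0.18 with deposited values) and for PSMB8 (-0.12, -0.096, -0.047 without the 3 libraries, -0.047 to 0.73 without 1 library), all with DMSO at 8 h. Conversion counts without 1 library ran from 0 to 1 for DMSO at 2 h, 5 to 12 at 4 h and 11 to 21 at 8 h; for KB742 from 2 to 4 at 4 h and 8 to 18 at 8 h; for KI-ARv-03 from 0 to 7 at 4 h and 8 to 18 at 8 h. Without the 3 libraries the KB742 count at 4 h was 13 and the KI-ARv-03 counts were 1 at 2 h and 13 at 4 h; with only the groups compared KB742 at 4 h gave 8 and KI-ARv-03 at 4 h gave 1. The other settings, a pseudocount of 0.25, no low-count filter, edgeR, summed transcripts, a log2 scale and minimums of 10 or 50 reads, kept every count within 1.5 times its value. Same-numbered libraries did not deviate together (correlations of -0.363 to 0.452, no comparison with every pair above 0.1); with the replicate number as a block, 26 members were called by level with DMSO at 8 h and 1 by conversion with KI-ARv-03 at 4 h. Where a value changed, the cause was not tested. For fits that left out libraries, the shares of all genes called are not given here. PSMB8, PSMB9, PSMC6 and PSMD5 rest on few reads.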
